A study of Mus musculus with 4 samples.

Results

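The genes described here encode the machinery that copies DNA in S phase, from origin licensing to the fork and its nucleotide supply. A list of 54 genes was taken, and probe sets were kept where the array annotation gave exactly 1 gene symbol equal to a listed gene. Each gene was represented by its brightest probe set, by the mean of the 4 arrays, which left 53 of the 54 genes, of 18193 genes in all. Chaf1a had no such probe set and has no value here. Affymetrix arrays measured RNA of mouse haematopoietic stem cells (HSC), bone marrow cells that renew the blood, sorted with a KLS CD48- CD150+ gate. There were 2 pools of Rb family deficient HSC (Rb -/- p130 -/- p107-/-) and 2 pools of wild type HSC (labelled Rb +/+ p130 +/+ p107-/-), so loss of p107 was shared by both groups. In adult mice, tamoxifen injection started recombination 2 weeks before sorting, and each pool held cells of 3 mice. The labels also give pool 1 of each group a name with a single number and pool 2 a name with a range of numbers, without explaining them, so whether the pools were alike in make-up is not known. The sources used here do not give the driver of the recombinase or the ages of the mice.

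An origin is licensed in G1 when the origin recognition complex, with Cdc6 and Cdt1, loads rings of Mcm2 to Mcm7 onto DNA. At S phase entry the Cdc7-Dbf4 kinase, Cdc45 and the GINS complex turn these rings into active helicases, and the polymerases, the PCNA clamp and its loader follow. Many of these genes are known targets of E2F transcription factors, which the retinoblastoma proteins Rb, p107 and p130 hold back, and most HSC of an adult are quiescent.

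All values are log2 expression values made with RMA. Every difference is Rb family deficient minus wild type on that scale, with limma's moderated standard error (SE). Array medians over all probe sets lay between 5.99 and 6.02 in deficient HSC and between 5.94 and 5.96 in wild type HSC. Over the genes, each by its brightest probe set, the order was the reverse. These medians were 6.95 and 6.97 in deficient HSC, against 7.02 and 7.02 in wild type HSC. Of the targeted genes, Rb1 stood at 9.82 and 9.72 in deficient HSC, against 9.37 and 9.58 in wild type HSC. Rbl2, which encodes p130, stood at 7.82 and 8.21 in deficient HSC, against 8.94 and 8.75 in wild type HSC, and Rbl1, which encodes p107, at 5.35 and 5.42 in deficient HSC, against 5.92 and 6.77 in wild type HSC. Whether these probe sets lie in the deleted exons was not analysed here, so they do not check the labels. Of the genes that define the sorted cells, Slamf1 (CD150) stood at 9.26 and 9.90 in deficient HSC, against 8.81 and 9.86 in wild type HSC, and Kit at 9.94 and 10.45 in deficient HSC, against 11.09 and 10.47 in wild type HSC. Over the list of stem cell genes, 2 of 9 were above 0, with a median difference of -0.24. Markers of mature neutrophils, which lie outside the gate, had positive differences for 8 of 8 genes, and their median level per pool was 12.39 and 11.63 in deficient HSC, against 10.63 and 11.73 in wild type HSC. Median levels of granulocyte and monocyte progenitor markers were 9.43 and 11.80 in deficient HSC, against 7.01 and 11.55 in wild type HSC. Lists for 4 other lineages had 3 of 4 (erythroid), 3 of 5 (megakaryocyte), 4 of 4 (B cell) and 5 of 5 (T and NK cell) genes above 0. Their median differences were 0.28, 0.17, 0.20 and 0.08, in the same order. The B cell and the T and NK cell genes were dim, with median percentiles of 36 and 43.4 by mean level among all genes. The part of other cell types in the values below was not tested. In pooled cells, fewer cycling cells and less RNA per cycling cell cannot be told apart.

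As a set, the replication genes lay slightly above the rest, and none of them passed the test. Of the 53 genes, 38 (71.7%) had a positive difference, with a median of 0.13 or 1.10-fold. Over all 18193 genes the share above 0 was 49.2% and the median was -0.0038. The level of nearly all replication genes was high on these arrays, and among genes at or above the median mean level 36.4% were above 0, with a median of -0.09, against 72.5% of the 51 replication genes in that range. The cumulative plot sets the 3 distributions side by side.

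**Figure D1:**
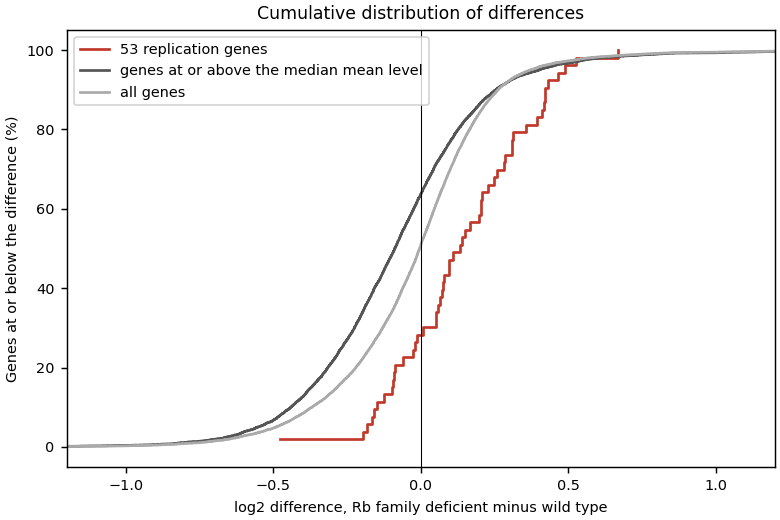
Cumulative share of genes (y axis, percent) by log2 difference, deficient minus wild type (x axis), for the 53 replication genes, the genes at or above the median mean level and all genes. The replication gene curve lies to the right of both others over the middle of the range, with a median of 0.13 against -0.09 and -0.0038.

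The limma test called 0 of 53 genes at an adjusted p under 0.05, as it called 0.00% of all genes. At an unadjusted p under 0.05 there were 6 replication genes above 0, or 11.3%, against 2.19% of all genes, and 1 below 0, or 1.89%, against 4.04% of all genes. Over all genes these were 399 above and 735 below 0, and 601 and 530 with arrays centred on their median over genes. The 6 were Orc1, Cdt1, Gmnn, Prim1, Rfc2 and Rfc3, and the 1 was Orc4. With any 1 array left out 2 or 3 genes, or 3.77% to 5.66%, were above 0 at that p, against 1.34% to 3.79% of all genes. Without wild type pool 2 these shares were 5.66% and 3.79%. Both deficient arrays lay above both wild type arrays for 23 genes, or 43.4%, against 17.0% of all genes, and below both for Orc4 alone, or 1.89%, against 18.5% of all genes. An exact permutation test of 2 pools against 2 cannot give a two-sided p below 0.333.

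Single pools mattered to the size of the shift. Wild type pool 2 was the lowest of the 4 arrays for 30 of the 53 genes, and wild type pool 1 for 12. Over all 18193 genes, wild type pool 2 was lowest for 3490 and wild type pool 1 for 5742. The median difference between deficient pool 1 and wild type pool 2 was 0.24, and between deficient pool 2 and wild type pool 2 it was 0.25. Against wild type pool 1 the medians were 0.07 for deficient pool 1 and 0.08 for deficient pool 2. Without wild type pool 2 the median of the 53 genes was 0.04 and 31 were above 0, or 58.5%, against 53.2% of all genes. Without wild type pool 1 it was 0.26, with 45 above 0, and both deficient arrays then lay above wild type pool 2 for 39 genes, or 73.6%, against 29.2% of all genes. Without wild type pool 2 both lay above wild type pool 1 for 26 genes, or 49.1%, against 38.5% of all genes. Mitotic genes showed the same pool at the bottom: of 11 measured proliferation markers, among them Mki67, Cdk1 and Top2a, 11 were lowest in wild type pool 2. Their median level was 9.94 and 9.74 in deficient HSC, against 10.07 and 9.16 in wild type HSC. Mki67, which marks cycling cells, stood at 12.19 and 12.24 in deficient HSC and at 12.44 and 11.45 in wild type HSC. The groups overlapped for 10 of the 11 markers, and for 11738 of all 18193 genes. The exception among the markers was Ccna2, at 11.19 and 11.17 in deficient HSC, against 10.52 and 10.47 in wild type HSC (0.69, SE 0.14). Both deficient arrays lay above both wild type arrays for 17.0% of all genes. The share of cycling cells in each pool was not measured, and its part in the shift was not tested.

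**Figure D2:**
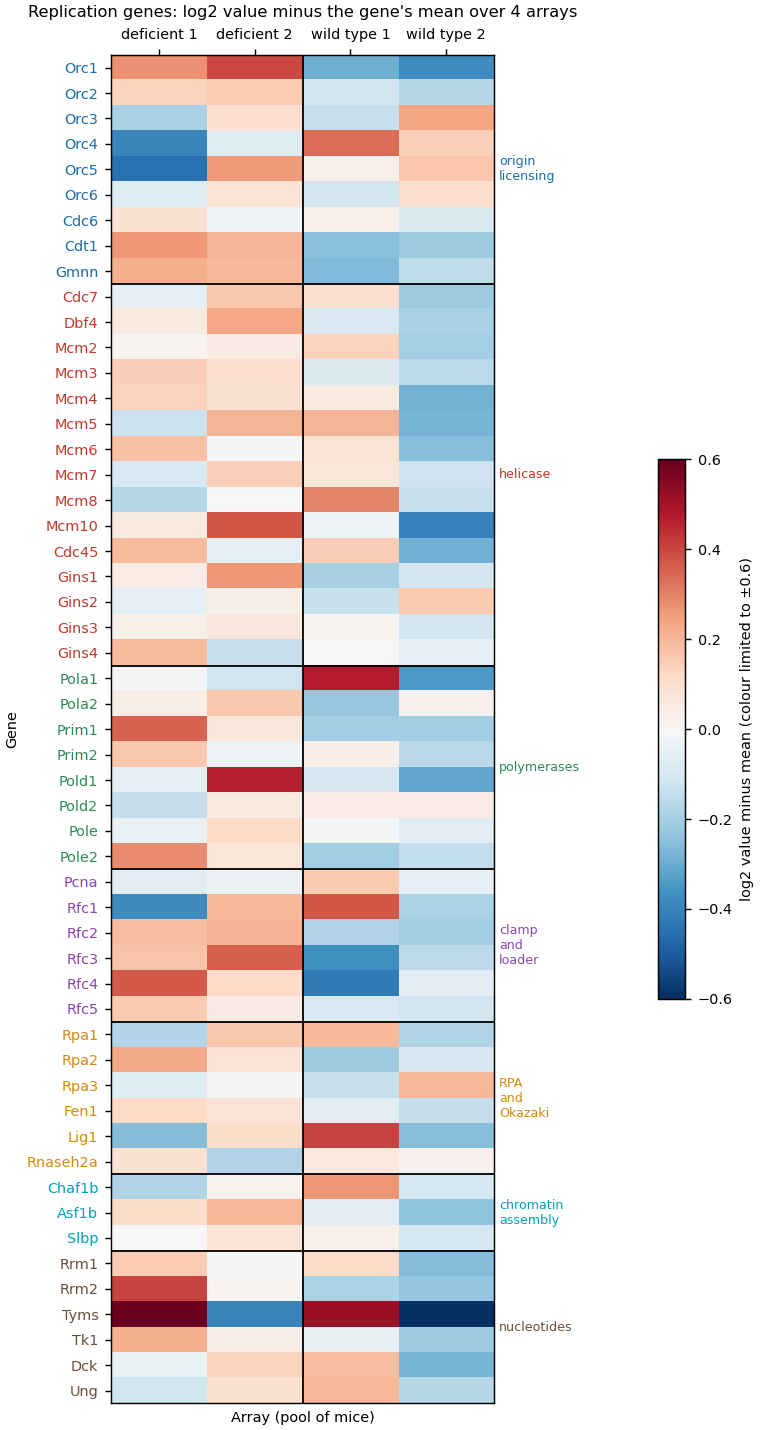
Log2 value of each of the 53 genes minus its own mean over the 4 arrays (colour, limited to ±0.6), with arrays as columns (deficient pools 1 and 2, wild type pools 1 and 2) and genes as rows grouped by sub-machine. Orc1, Cdt1, Gmnn, Rfc2 and Rfc3 are red in both deficient pools and blue in both wild type pools, while Mcm2 to Mcm7 are all lowest in wild type pool 2.

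Origin licensing held the largest positive and the largest negative difference of the 53 genes. Of its 9 genes, 6 were above 0, with a median of 0.06, and of 0.12 to 0.16 with any 1 array left out. Orc1, the largest subunit of the origin recognition complex, had log2 values of 8.11 and 8.23 in deficient HSC, against 7.54 and 7.46 in wild type HSC. It was 1.59-fold higher (log2 difference 0.67, SE 0.15, 2 pools a group, limma adjusted p = 0.761), and its groups did not overlap. A second, dimmer Orc1 probe set differed by 0.21 (SE 0.18).

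The upstream 250 bases of Orc1 are shown because it had the smallest p, with those of Orc4 for contrast, from RefSeq on GRCm38.p6 and read along the gene. Capitals mark E2F-type letters (TTTGGCGC, TTTGCCGC, TTTCGCGC or TTTCCCGC on either strand) and CCAAT on either strand, the letters read by the factor NF-Y.
Orc1, chr4:108579204-108579453, plus strand: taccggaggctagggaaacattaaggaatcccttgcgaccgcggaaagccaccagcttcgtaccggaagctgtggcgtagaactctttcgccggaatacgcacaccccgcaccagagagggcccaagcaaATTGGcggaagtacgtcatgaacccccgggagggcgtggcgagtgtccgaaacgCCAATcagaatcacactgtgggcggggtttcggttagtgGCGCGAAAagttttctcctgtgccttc
Orc4, chr2:48950082-48950331, minus strand: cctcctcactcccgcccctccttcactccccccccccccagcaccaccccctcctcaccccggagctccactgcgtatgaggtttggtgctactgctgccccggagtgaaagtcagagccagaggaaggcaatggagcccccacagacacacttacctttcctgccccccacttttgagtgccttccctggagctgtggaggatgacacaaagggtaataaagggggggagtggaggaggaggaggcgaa
Orc1 holds 1 E2F-type match just before the start and 2 CCAAT matches. Orc4 has 3 listed windows, of which the first is shown, and 0 of them hold E2F-type letters.

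Orc4, another subunit of the complex, went the other way, with 7.99 and 8.30 in deficient HSC, against 8.72 and 8.53 in wild type HSC. Its difference was -0.48 (SE 0.18, limma adjusted p = 0.786), and its groups did not overlap. A second Orc4 probe set differed by -0.41 (SE 0.16), and the 2 dimmest by -0.10 and 0.04. The 6 subunits of the complex therefore did not share a direction. Orc2 differed by 0.28 (SE 0.14), with its other 2 probe sets at 0.36 and 0.50, while Orc6 (0.0071), Orc3 (-0.09) and Orc5 (-0.19) lay within their SE of 0.

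Both the loader and its inhibitor lay above 0. Cdt1, which brings the Mcm rings to the origin, had 12.40 and 12.34 in deficient HSC, against 11.88 and 11.92 in wild type HSC, 1.38-fold higher (log2 difference 0.46, SE 0.14, limma adjusted p = 0.761). Geminin (Gmnn), which binds Cdt1 and prevents a second licensing in the same cycle, had 12.09 and 12.07 in deficient HSC, against 11.60 and 11.72 in wild type HSC, 1.33-fold higher (log2 difference 0.42, SE 0.14, limma adjusted p = 0.770). For neither gene did the groups overlap. The upstream 250 bases of Cdt1, second by p, hold no marked letters.
Cdt1, chr8:122567765-122568014, plus strand: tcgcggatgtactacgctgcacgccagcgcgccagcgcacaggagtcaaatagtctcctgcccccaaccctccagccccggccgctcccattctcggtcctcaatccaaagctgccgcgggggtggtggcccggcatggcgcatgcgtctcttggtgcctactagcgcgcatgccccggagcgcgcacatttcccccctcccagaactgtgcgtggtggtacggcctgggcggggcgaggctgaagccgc
The E2F-type match of Cdt1 lies after the start and is shown with the sites of other genes further on. The other 2 Cdt1 probe sets differed by 0.10 and 0.11, less than their SE of 0.18 and 0.17. The one at 0.11 was dim, with a mean of 3.46. Cdc6, the partner of Cdt1 in loading, differed by 0.06 (SE 0.15), with 9.81 and 9.69 in deficient HSC, against 9.75 and 9.64 in wild type HSC.

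**Figure D3:**
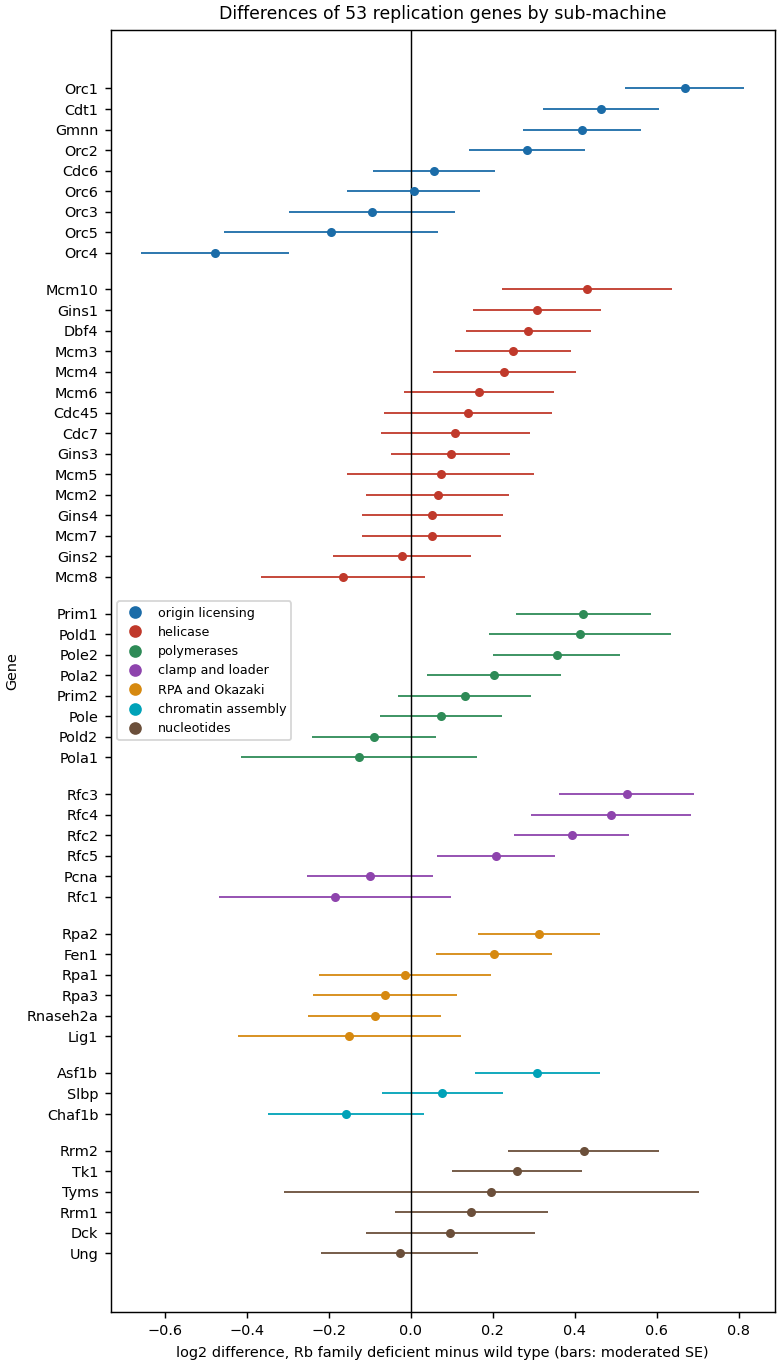
Log2 difference, deficient minus wild type (x axis), of each of the 53 genes (y axis), grouped by sub-machine and ordered by size, with bars for the moderated SE. Differences run from -0.48 for Orc4 to 0.67 for Orc1, and 0 genes passed limma's adjusted threshold.

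The helicase and the factors that activate it had the most uniform sign, 13 of 15 genes above 0, at a small median of 0.11. All 6 subunits of the Mcm2 to Mcm7 ring were above 0 in the 4-array fit, with differences from 0.05 for Mcm7 to 0.25 for Mcm3 and a median of 0.12. Mcm3 had 11.77 and 11.73 in deficient HSC, against 11.54 and 11.46 in wild type HSC, and its 4 other probe sets differed by 0.14 to 0.55. Mcm4 (0.23, SE 0.17) was the other ring subunit whose groups did not overlap. Probe sets disagreed for Mcm2, where the other differed by -0.16, for Mcm5 (-0.68 and 0.18) and for Mcm7 (-0.33, -0.02 and 0.38). For Mcm6 the brighter of the other 2 differed by 0.05. The dim one, with a mean of 3.57, differed by -0.04 (SE 0.16). Every ring subunit was lowest in wild type pool 2. Without that pool Mcm2 (-0.10), Mcm5 (-0.17), Mcm6 (-0.0047) and Mcm7 (-0.05) turned below 0, and 8 of the 15 helicase genes were above 0, with a median of 0.03.

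Mcm10, which joins the fork as the helicase starts and is no part of the ring, had the largest difference of this sub-machine. Its values were 9.27 and 9.59 in deficient HSC, against 9.19 and 8.81 in wild type HSC, a difference of 0.43 (SE 0.21, limma adjusted p = 0.809). Gins1, a subunit of the GINS complex, had 10.30 and 10.51 in deficient HSC, against 10.05 and 10.14 in wild type HSC (0.31, SE 0.16), while Gins2 (-0.02), Gins3 (0.10) and Gins4 (0.05) lay closer to 0. Dbf4, the regulatory subunit of the Cdc7 kinase that fires origins, had 10.34 and 10.52 in deficient HSC, against 10.19 and 10.09 in wild type HSC (0.29, SE 0.15). For Mcm10, Gins1 and Dbf4 the groups did not overlap. Cdc7 itself differed by 0.11 (SE 0.18) and the helicase cofactor Cdc45 by 0.14 (SE 0.21). Mcm8, which acts with Mcm9 in recombination rather than in the ring, was lowest, at 6.72 and 6.90 in deficient HSC, against 7.19 and 6.76 in wild type HSC (-0.17, SE 0.20).

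Of the 8 polymerase and primase genes, 6 were above 0, with a median of 0.17. Prim1, the catalytic subunit of the primase that lays down RNA primers, had 12.14 and 11.86 in deficient HSC, against 11.58 and 11.58 in wild type HSC. It was 1.34-fold higher (log2 difference 0.42, SE 0.16, limma adjusted p = 0.792), its groups did not overlap, and its other probe set differed by 0.26 (SE 0.19). Prim2, the regulatory primase subunit, differed by 0.13 (SE 0.16). Pole2, the second subunit of the leading strand polymerase epsilon, had 10.53 and 10.32 in deficient HSC, against 10.04 and 10.10 in wild type HSC (0.36, SE 0.15), with its dimmer probe set at 0.50 (SE 0.17). The catalytic subunit Pole differed by 0.07 (SE 0.15).

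Pold1, the catalytic subunit of polymerase delta, had 10.29 and 10.81 in deficient HSC, against 10.24 and 10.03 in wild type HSC, a difference of 0.41 (SE 0.22). The chosen Pold1 probe set has an _x_at name, which marks probes that can hybridise to other transcripts, and the probe set without such a name differed by -0.45 (SE 0.50). Its partner Pold2 differed by -0.09 (SE 0.15). In polymerase alpha, Pola2 differed by 0.20 (SE 0.16), and the catalytic Pola1 by -0.13 (SE 0.29), the lowest of the sub-machine. Pola1 had 10.11 and 9.99 in deficient HSC, between the 10.58 and 9.77 of the wild type pools. For Pola1 the gap between both wild type pools exceeded that between the groups.

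The clamp loader was the sub-machine with the highest median, 0.30 over 6 genes with the PCNA clamp included, and its 4 small subunits were all above 0. Rfc3 had 8.41 and 8.60 in deficient HSC, against 7.87 and 8.09 in wild type HSC, 1.44-fold higher (log2 difference 0.53, SE 0.16, limma adjusted p = 0.761). Rfc4 had 10.82 and 10.57 in deficient HSC, against 10.03 and 10.39 in wild type HSC (0.49, SE 0.19, limma adjusted p = 0.793), and Rfc2 had 10.41 and 10.43 in deficient HSC, against 10.04 and 10.01 in wild type HSC (0.39, SE 0.14, limma adjusted p = 0.782). With Rfc5 at 0.21 (SE 0.14), the groups did not overlap for any of the 4 by the chosen probe sets. Both deficient arrays lay above both wild type arrays for 17.0% of all genes. Rfc1, the large subunit that contacts the clamp, differed by -0.18 (SE 0.28), with 10.06 and 10.63 in deficient HSC, against 10.81 and 10.24 in wild type HSC, so that its groups overlapped. Pcna, the sliding clamp, differed by -0.10 (SE 0.15), with 12.53 and 12.57 in deficient HSC, against 12.76 and 12.54 in wild type HSC.

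The differences of the small subunits depended on the probe set. With probe sets lacking an _x_at, _s_at or _a_at name taken first, Rfc2 differed by -0.09 and the median of the 6 genes was -0.04. This rule goes by name alone, so it also set aside the _a_at probe set chosen for Rfc3. Another Rfc2 probe set, with an _x_at name like the chosen one, differed by 0.35 (SE 0.14). The Rfc3 probe set without an _a_at name differed by 0.01 (SE 0.20), and that of Rfc4 without an _s_at name by 0.20 (SE 0.19). For both of these, and for the Rfc2 probe set at -0.09, the groups overlapped. The upstream 250 bases of Rfc3, next after Orc1 and Cdt1 by p, are shown with the same marking.
Rfc3, chr5:151651209-151651458, minus strand: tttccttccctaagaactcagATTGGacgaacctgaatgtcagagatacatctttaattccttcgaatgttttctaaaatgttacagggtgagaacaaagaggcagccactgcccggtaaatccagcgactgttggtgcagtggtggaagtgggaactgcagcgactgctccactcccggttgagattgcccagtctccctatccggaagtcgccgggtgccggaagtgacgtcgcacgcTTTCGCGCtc
An E2F-type match lies within these bases and another begins at the start site.

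Single-strand binding and Okazaki fragment genes were the only sub-machine with a median below 0, at -0.04 with 2 of 6 genes above 0. Rpa2, the middle subunit of the protein that coats unwound DNA, had 11.28 and 11.14 in deficient HSC, against 10.84 and 10.95 in wild type HSC (0.31, SE 0.15, limma adjusted p = 0.809). The large subunit Rpa1 (-0.01, SE 0.21) and the small subunit Rpa3 (-0.06, SE 0.18) lay near 0. Fen1, the nuclease that trims Okazaki fragments, had 12.47 and 12.44 in deficient HSC, against 12.29 and 12.21 in wild type HSC (0.20, SE 0.14), and a second, dimmer probe set at -0.26 (SE 0.34). For Rpa2 and Fen1 the groups did not overlap. The ligase gene Lig1, which seals the fragments, was lowest, at 10.14 and 10.51 in deficient HSC, against 10.81 and 10.14 in wild type HSC (-0.15, SE 0.27). Rnaseh2a, which removes RNA from DNA, differed by -0.09 (SE 0.16). Without deficient pool 1 the median was 0.10 and without wild type pool 1 it was 0.18, each with 4 genes above 0.

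In chromatin assembly, Asf1b, a chaperone of new histones, had 10.20 and 10.29 in deficient HSC, against 10.02 and 9.85 in wild type HSC (0.31, SE 0.15, limma adjusted p = 0.812), and its groups did not overlap. Chaf1b, a subunit of the assembly factor CAF-1, had 8.75 and 8.95 in deficient HSC, against 9.19 and 8.82 in wild type HSC (-0.16, SE 0.19), with a dimmer probe set at 0.32 (SE 0.16). Slbp, which binds the stem loop of histone mRNA, had 11.11 and 11.19 in deficient HSC, against 11.14 and 11.01 in wild type HSC (0.08, SE 0.15). A second, dimmer Slbp probe set, chosen after its value was seen, stood at 9.33 and 9.48 in deficient HSC, against 8.18 and 8.39 in wild type HSC, a difference of 1.12 (SE 0.16). The 2 Slbp probe sets thus gave unlike values, and the transcripts each detects were not analysed here.

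Nucleotide genes had 5 of 6 above 0 and a median of 0.17. Rrm2, the small subunit of ribonucleotide reductase, had 12.59 and 12.20 in deficient HSC, against 11.99 and 11.95 in wild type HSC, 1.34-fold higher (log2 difference 0.42, SE 0.18, limma adjusted p = 0.800). Its other probe sets differed by 0.09 and -0.13. Tk1, the thymidine kinase of S phase, had 10.46 and 10.28 in deficient HSC, against 10.20 and 10.02 in wild type HSC (0.26, SE 0.16), and as for Rrm2 the groups did not overlap. The large reductase subunit Rrm1 had 11.23 and 11.07 in deficient HSC, against 11.19 and 10.81 in wild type HSC (0.15, SE 0.19). Dck, a salvage kinase for deoxynucleosides, differed by 0.10 (SE 0.21). Ung, which removes uracil from DNA, was lowest, with 10.73 and 10.94 in deficient HSC, against 11.04 and 10.68 in wild type HSC (-0.03, SE 0.19).

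The chosen, dim probe set of Tyms, which makes thymidylate, split by pool number and not by group. It had 6.71 and 5.71 in deficient HSC, against 6.63 and 5.40 in wild type HSC (0.20, SE 0.51). Another Tyms probe set of similar brightness did not split so. It had 6.29 and 6.23 in deficient HSC, against 6.32 and 5.29 in wild type HSC (0.45, SE 0.35). All 6 nucleotide genes were lowest in wild type pool 2. Without that pool 2 of the 6 were above 0 and the median was -0.09.

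**Figure D4:**
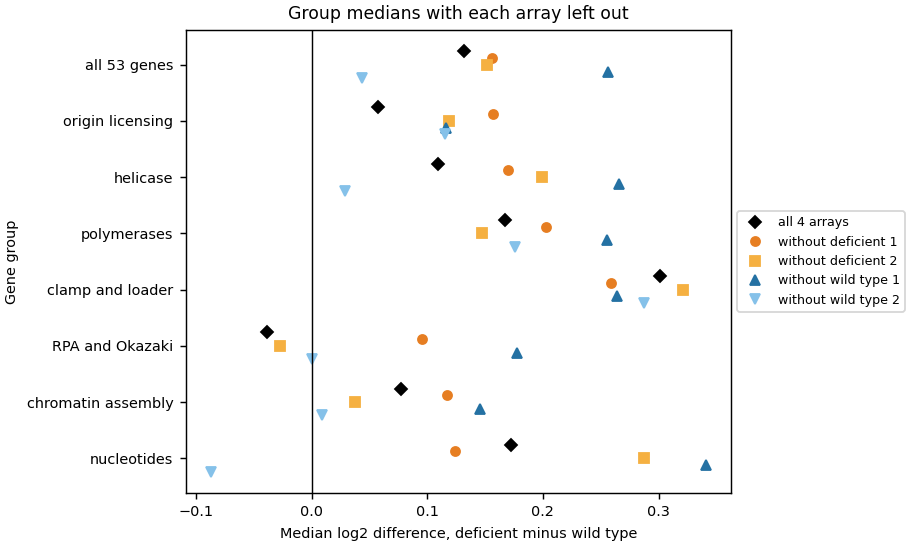
Median log2 difference, deficient minus wild type (x axis), of all 53 genes and of each sub-machine (y axis), from all 4 arrays and with each array left out in turn. The median of all 53 genes ranges from 0.04 without wild type pool 2 to 0.26 without wild type pool 1, the clamp and loader group stays between 0.26 and 0.32, and the nucleotide group turns to -0.09 without wild type pool 2.

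Across the sub-machines, 25 of the 53 genes stayed above 0 with each array left out in turn, Orc4 alone stayed below 0, and 27 took both signs. Probe sets of 1 gene often differed. Of the 60 further probe sets of these genes, 41 had the sign of the chosen one and 19 the opposite sign.

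Other genes of replication, listed beside the 53, were split almost evenly around 0. Of 59 further genes 56 were measured, and 29 (51.8%) were above 0, with a median of 0.0078. At an unadjusted p under 0.05 there were 2 above 0, or 3.57%, against 2.19% of all genes, and 0 below, and 0 passed the adjusted threshold. Both deficient arrays lay above both wild type arrays for 10 of the 56, or 17.9%, against 17.0% of all genes, and below both for 8, or 14.3%, against 18.5% of all genes. Dscc1, a subunit of an alternative clamp loader, had 10.96 and 10.51 in deficient HSC, against 10.20 and 9.98 in wild type HSC (0.65, SE 0.21, limma adjusted p = 0.761). Mcmbp, which binds Mcm proteins, had 10.24 and 10.07 in deficient HSC, against 9.45 and 9.78 in wild type HSC (0.54, SE 0.18, limma adjusted p = 0.761). The purine synthesis gene Gart had 9.21 and 9.70 in deficient HSC, against 10.02 and 9.93 in wild type HSC (-0.52, SE 0.21). Next by p came the nuclease and helicase gene Dna2 (0.34, SE 0.14), the thymidylate kinase gene Dtymk (0.29, SE 0.14) and Mtbp, which acts in origin firing (0.31, SE 0.15). For these 6, taken for their small p, the groups did not overlap. Without deficient pool 1 the count at an unadjusted p under 0.05 was 0 above 0, and the median was -0.07 without wild type pool 2.

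Promoter letters were more frequent than over the array, though most of the replication genes held no E2F-type match. The choice of genes did not use the letters. Many of the genes are known E2F targets, however, so the share is not independent of that choice. Windows from 250 bases before to 50 bases after the gene start were listed by RefSeq for 46 of the 54 genes. E2F-type letters were found in windows of 15 of the 46 genes, or 32.6%, against 3.81% of the 14452 array genes with a window. E2F-type letters can overlap each other, as in Mcm5, and can share a letter with CCAAT, as in Mcm7. CCAAT on either strand was found in 28 genes, or 60.9%, against 42% of array genes. The replication gene windows were also richer in G and C, with a median of 61.7% against 58.7% over array genes. Of the further replication genes, 10 of 50 held E2F-type letters, or 20%. Matches were found in 6 of 11 helicase genes, 4 of 8 licensing genes and 3 of 6 polymerase genes. They were found in 1 of 5 clamp and loader genes, 1 of 6 Okazaki genes, 0 of 4 chromatin assembly genes and 0 of 6 nucleotide genes.

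Sites of the licensing and helicase genes are shown with 8 bases on either side where the window holds them, read along the gene, with the matched letters in capitals. They are shown because these groups hold most of the matches, with the match nearest the start for each gene.
Orc1, chr4:108579419-108579442, plus strand: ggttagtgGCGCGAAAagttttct
Cdt1, chr8:122568039-122568062, plus strand: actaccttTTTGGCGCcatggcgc
Cdc6, chr11:98908005-98908028, plus strand: ggtggagaGCGGGAAAtcgcctgg
Orc3, chr4:34614968-34614991, minus strand: tgcctcccTTTCCCGCacgccccg
Mcm3, chr1:20820278-20820301, minus strand: cttccgtgGCGGGAAAacttggga
Mcm5, chr8:75109352-75109375, plus strand: gaactttcGCGCCAAAacgtccag
Mcm6, chr1:128359737-128359760, minus strand: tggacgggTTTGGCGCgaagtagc
Mcm7, chr5:138171852-138171875, minus strand: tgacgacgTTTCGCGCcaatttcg
Mcm8, chr2:132816172-132816190, plus strand: tcatagacGCGCCAAAaaa
Gins3, chr8:95633510-95633533, plus strand: agtgcggcGCGGGAAAgcgagttt
The match in Cdt1 begins 32 bases after the start and that in Orc1 27 bases before it. Of the 21 matches in all, 14 begin within 100 bases of the start.

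**Figure D5:**
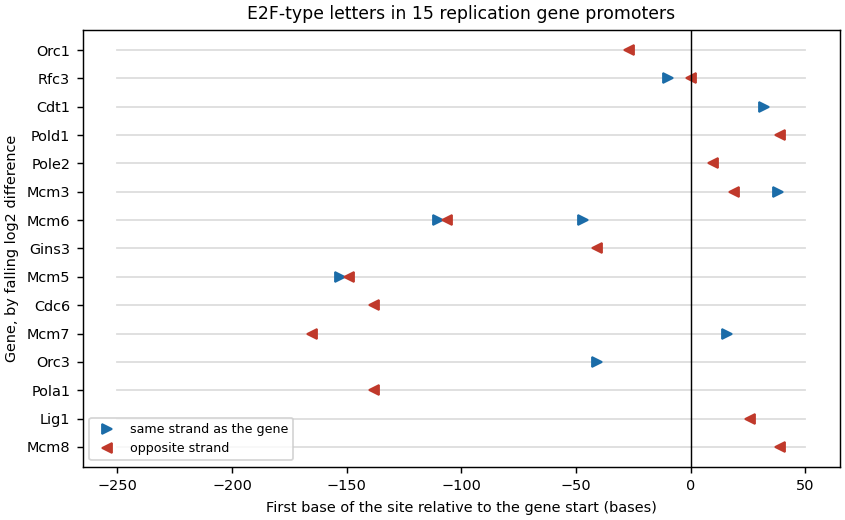
Position of each E2F-type match (x axis, bases from the gene start) in the windows of 15 replication genes (y axis, ordered by falling log2 difference), with the direction of the triangle for the strand of the match. The genes with the largest differences, Orc1 and Rfc3, and those with the lowest, Mcm8 and Lig1, all have matches near the start.

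Replication genes with and without these letters had similar median differences, and the contrast was not tested. The 15 genes with a match had a median difference of 0.10, with 11 above 0, and the 30 measured genes with a window and no match had a median of 0.12, with 20 above 0. Over the array, the 550 genes with a match had a median of -0.0096 and the 13902 without one had a median of -0.0074. A match is a description of letters in a window, and binding of E2F factors was not measured here.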

How the data were processed

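The authors deposited log2 values for each probe set on each array, which they summarised with RMA, per the submitters' processing notes. Those notes also name limma, without versions, and the log2 scale was read from the range of the values. Because RMA equalises the arrays' distributions, shifts in a cell's whole RNA content are not visible. Precision is limited by having 4 arrays.

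Of 45101 probe sets, 64 were array controls and left out, 34945 had 1 gene symbol in the platform annotation of 2016, 932 had several and 9160 had none listed. Symbols were updated through the Entrez ID for 34741 probe sets. Each of 18193 genes was represented by its probe set with the highest mean, with no filter on dim probe sets. Groups were compared with limma 3.58.1 in R 4.3.3 (lmFit and eBayes, no block), with Benjamini-Hochberg adjustment over all genes and a threshold of 0.05. Every adjusted p is from that fit. Values of a gene's further probe sets came from the same fit run over all probe sets. The gene fit was tested on simulated data.

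The members, lists and rules were chosen with earlier results of these data known. Values on every array are given for the 3 genes with the smallest p and the gene with the lowest difference in each of 7 sub-machines, for every gene at an unadjusted p under 0.05, and for 3 of the 6 further genes with the smallest p. Upstream sequence is given for the genes of smallest p with a listed window, and for the gene with the lowest difference. Nothing states whether the pools of a group came from separate mice, so p-values measure only the spread between these pools. Alternatives were other probe set rules, centring, repeated quantile normalization, a filter on dim genes, the number as a block, a trended robust fit and each array left out. The rule called specific probe sets first took probe sets without an _x_at, _s_at or _a_at name before others. It went by name alone, and specificity to the gene was not tested. Among genes at an unadjusted p under 0.05, it set aside the _a_at probe sets of Cdt1, Prim1, Rfc3 and Orc4. It also set aside the _x_at probe set of Rfc2.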

Additional observations from a re-analysis of the deposited data

How the results depend on the processing

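The count of 0 genes past limma's adjusted threshold held under every alternative run, each array left out included, and 399 genes were above 0 and 735 below at an unadjusted p under 0.05. These counts were 601 and 530 with arrays centred on the median over all genes, 297 and 1015 on the median over all probe sets (chosen after seeing the data), and 176 and 408 among the brighter genes. They ran from 244 to 689 and from 317 to 1082 with an array left out, where the lone pool of a group was assumed to vary like the other group. No background or detection values were used, so dim probe sets, such as that of Tyms, were not set apart.

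For the 53 replication genes the median (0.13) was 0.0744 with all probe sets of a gene averaged, 0.0675 with specific probe sets first, 0.19 with centring over genes, 0.0766 with centring over probe sets, 0.20 with quantile normalization repeated, and 0.0432 to 0.256 with an array left out. The median over all genes (-0.0038) also moved, to 0.0507 with centring over genes and -0.0588 with centring over probe sets. It was -0.011 with quantile normalization repeated. The number of replication genes above 0 ran from 31 to 45 with an array left out. The 6 genes above 0 at an unadjusted p under 0.05 (11.3%, against 2.19% of all genes) became 2 with specific probe sets first (3.77%, against 2.1%), 11 with repeated quantile normalization (20.8%, against 2.5%), 3 among brighter genes (5.88%, against 1.93%), and 2 to 3 with an array left out (3.77% to 5.66%, against 1.34% to 3.79%). The 1 below 0 became 0 with the mean of probe sets, specific probe sets first, centring over genes, repeated quantile normalization, brighter genes only and the trended robust fit, and 0 to 1 with an array left out. The 23 genes with separate groups (43.4%, against 17% of all genes) became 14 with specific probe sets first (26.4%, against 17%), and 26 to 39 with an array left out (49.1% to 73.6%, against 29.2% to 38.5%), where 2 arrays against 1 separate more easily.

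No label says that a pool number marks shared mice or a shared day. Deviations of same-numbered pools from their group means correlated at -0.188 over all genes and at 0.154 over the 53. With the replicate block, 3 replication genes were above 0 (5.66%, against 1.54% of all genes) and 0 below at an unadjusted p under 0.05, with 1 further gene above 0, and 281 of all genes above and 457 below 0. With pool numbers crossed, added after seeing the data, 1151 of all genes and 1 further gene were below 0 at that p.

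By sub-machine, the polymerase median was 0.0899 with the mean of probe sets, 0.25 with repeated quantile normalization and 0.15 to 0.26 with an array left out. The clamp and loader median was 0.21 with the mean of probe sets and -0.0384 with specific probe sets first. The Okazaki group median was 0.0163 with centring over genes, 0.0281 with repeated quantile normalization and -0.0276 to 0.18 with an array left out, and its number above 0 was 1 with the mean of probe sets, 5 with repeated quantile normalization and 3 to 4 with an array left out. The chromatin assembly median was 0.31 with the mean of probe sets. With an array left out, the helicase median ran from 0.0287 to 0.27 with 8 to 14 genes above 0, and the nucleotide median from -0.0872 to 0.34 with 2 to 6 above 0. The median of the further genes was -0.0274 with specific probe sets first, -0.0472 with centring over probe sets and -0.0682 to 0.0974 with an array left out. Its count at an unadjusted p under 0.05 was 4 above 0 with the mean of probe sets and with specific probe sets first, 1 below 0 with centring over probe sets, and 0 to 3 above and 0 to 2 below with an array left out.

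Single genes changed sign with the mean of probe sets for Cdc7 (-0.0405), Mcm2 (-0.049), Mcm5 (-0.14), Pold1 (-0.02), Fen1 (-0.0271), Chaf1b (0.0797) and Rrm1 (-0.10). With specific probe sets first they did so for Mcm2 (-0.16), Mcm5 (-0.68), Pold1 (-0.45) and Rfc2 (-0.0915). Centring over genes did so for Gins2 (0.0336), Rpa1 (0.0402) and Ung (0.0274), centring over probe sets for Orc6 (-0.0479), Mcm7 (-0.0041) and Gins4 (-0.0021), and repeated quantile normalization for Gins2 (0.0674), Rpa1 (0.0329), Rpa3 (0.0232), Rnaseh2a (0.001) and Ung (0.0341). With an array left out, ranges that crossed 0 were -0.28 to 0.0928 for Orc3, -0.55 to 0.16 for Orc5, -0.10 to 0.12 for Orc6, -0.0031 to 0.12 for Cdc6, -0.0477 to 0.27 for Cdc7, -0.10 to 0.24 for Mcm2, -0.17 to 0.32 for Mcm5, -0.0047 to 0.34 for Mcm6, -0.0681 to 0.17 for Mcm7, -0.38 to 0.0506 for Mcm8, -0.0758 to 0.36 for Cdc45, -0.17 to 0.12 for Gins2 and -0.11 to 0.22 for Gins4. They were -0.53 to 0.28 for Pola1, -0.19 to 0.0078 for Pold2, -0.004 to 0.15 for Pole, -0.21 to 0.0085 for Pcna, -0.47 to 0.10 for Rfc1, -0.20 to 0.17 for Rpa1, -0.23 to 0.11 for Rpa3, -0.48 to 0.18 for Lig1, -0.22 to 0.0466 for Rnaseh2a, -0.34 to 0.0287 for Chaf1b, -0.0394 to 0.34 for Rrm1, -0.42 to 0.81 for Tyms, -0.14 to 0.33 for Dck and -0.21 to 0.16 for Ung. The cause of these changes was not tested.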
